A study of Homo sapiens with 4 samples.

Results

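The members are the entries of the expression table whose gene name holds a symbol of 5 gene families that lie in segmental duplications, namely NPIPA and NPIPB (NPIP), NBPF, NOTCH2NL, GOLGA6 and GOLGA8, and NUDT4B. Of 64873 entries in the table, 105 qualified by name, and 69 of these passed the filter on low counts and were tested. An entry is 1 assembled locus, which may hold several gene names where transcripts of neighbouring genes were joined. The libraries came from K562, a human erythroleukemia cell line, in which the U2AF1 S34F mutant was overexpressed in all 4 libraries. The comparison was between 2 libraries of cells given the solvent DMSO and 2 libraries of cells given SF1-8, a compound that binds the UHM domain of the splicing factor U2AF1, at 30 µM for 48 h. There was no library with wild-type U2AF1 and none without overexpression, and the sources did not say whether the 2 libraries of a group came from separate cultures, so the spread between them may be technical. The families were chosen by the differences in level between DMSO and SF1-8 that their entries had shown in these same libraries, so those differences are given as a description and not as a test.

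Segmental duplications are long blocks of the genome that were copied to other places recently enough for the copies to stay almost identical. A short sequencing read from such a block can match several places, and the level given to 1 copy then depends on how the read was assigned. NPIP genes fill the duplicated blocks of chromosome 16, next to copies of SMG1, whose full gene encodes a kinase of nonsense-mediated decay. NBPF genes on chromosome 1 encode proteins with repeated Olduvai (DUF1220) domains, NOTCH2NL genes beside them are partial copies of the receptor gene NOTCH2, and GOLGA6 and GOLGA8 on chromosome 15 are golgin-like genes. NUDT4 encodes a phosphohydrolase of diphosphoinositol polyphosphates, and NUDT4B and NUDT4P2 are its copies on chromosome 1.

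The copies were first compared by sequence, since this decides how far their levels can be told apart. In GENCODE v29 (GRCh38), the coding sequences of NUDT4 and NUDT4B were compared with the whole annotated transcript of NUDT4P2, a pseudogene. These were 546 bases each with 0 differences between any pair. The first 300 bases are shown because they serve for all of these genes, with the positions of NUDT4B, chr1:148748953-148749252, plus strand, within 1 exon.

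NUDT4, NUDT4B and NUDT4P2: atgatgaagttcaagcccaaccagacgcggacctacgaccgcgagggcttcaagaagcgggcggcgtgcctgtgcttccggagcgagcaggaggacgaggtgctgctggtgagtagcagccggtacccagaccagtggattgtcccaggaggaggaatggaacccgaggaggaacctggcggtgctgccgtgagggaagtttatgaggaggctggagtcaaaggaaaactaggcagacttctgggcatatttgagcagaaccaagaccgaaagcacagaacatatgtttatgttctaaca

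NOTCH2NL copies differ from NOTCH2 by few bases. A stretch of 150 coding bases found in NOTCH2 and in all 4 NOTCH2NL entries is shown because it holds differences between NOTCH2 and every copy, with capitals marking letters that differ from NOTCH2. Each stretch is spliced across an intron. It spans chr1:119997313-120005458 (minus strand) in NOTCH2, chr1:120785104-120793180 (plus) in the NOTCH2NLR entry, chr1:146156796-146164880 (minus) in the NOTCH2NLA entry, chr1:148607726-148615820 (minus) in the NOTCH2NLB entry and chr1:149455448-149463510 (plus) in the NOTCH2NLC entry.

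NOTCH2: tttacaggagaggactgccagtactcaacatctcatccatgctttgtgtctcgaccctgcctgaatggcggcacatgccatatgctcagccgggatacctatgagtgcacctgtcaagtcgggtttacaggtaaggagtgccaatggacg
NOTCH2NLR: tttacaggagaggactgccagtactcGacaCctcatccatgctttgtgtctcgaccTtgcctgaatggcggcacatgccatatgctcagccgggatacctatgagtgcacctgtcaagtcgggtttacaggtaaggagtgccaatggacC
NOTCH2NLA: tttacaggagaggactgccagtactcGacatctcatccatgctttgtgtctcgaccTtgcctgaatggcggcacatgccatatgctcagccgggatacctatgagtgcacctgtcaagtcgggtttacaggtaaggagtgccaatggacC
NOTCH2NLB: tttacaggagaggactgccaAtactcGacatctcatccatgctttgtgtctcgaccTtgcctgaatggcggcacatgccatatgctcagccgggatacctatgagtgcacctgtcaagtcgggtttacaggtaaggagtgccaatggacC
NOTCH2NLC: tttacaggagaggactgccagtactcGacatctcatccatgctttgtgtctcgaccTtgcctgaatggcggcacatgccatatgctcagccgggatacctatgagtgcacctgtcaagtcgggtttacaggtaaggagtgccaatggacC

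NOTCH2NLR and NOTCH2NLB each had 4 differences from NOTCH2, and NOTCH2NLA and NOTCH2NLC had 3 each. The stretches of NOTCH2NLA and NOTCH2NLC held the same letters. For NPIP and NBPF, 1 coding run of 120 bases shared without a difference by many entries is shown in lower case throughout. The NPIP run is placed at chr16:11927755-11927874 (minus strand, NPIPB2) and the NBPF run at chr1:16569172-16574489 (minus, NBPF1, spliced).

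NPIP: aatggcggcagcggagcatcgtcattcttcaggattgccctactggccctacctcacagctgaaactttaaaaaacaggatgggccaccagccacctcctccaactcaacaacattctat
NBPF: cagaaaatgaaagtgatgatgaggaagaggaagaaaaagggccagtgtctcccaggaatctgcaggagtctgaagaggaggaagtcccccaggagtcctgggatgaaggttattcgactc

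The NPIP run was held by 7 of 16 NPIP entries with a coding transcript and the NBPF run by 9 of 13 NBPF entries. Sharing was also measured over whole transcripts as the percentage of distinct 50-base words of an entry that occur in another entry as well. Among tested entries with an annotated transcript, the median was 81.0% in NPIP (17 entries, 20.9% to 100%), 64.5% in NBPF (17 entries, 11.3% to 95.1%), 79.0% in NOTCH2NL (4 entries, 64.5% to 84.2%) and 51.4% in the golgins (9 entries, 3.2% to 97.1%). The annotated NUDT4B entry shared 95.7% of its words with NUDT4, while NUDT4, which has longer transcripts, shared 12% with other entries. The annotated transcript of NUDT4P2 shared 100% of its words with NUDT4B. The entry that gives the level of NUDT4P2 spans 8560 bases, and its other sequence was not compared.

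Total counts per library were 45522905 and 64387710 in DMSO and 67554610 and 64305922 in SF1-8, so the first DMSO library was the shallowest. Levels are given as FPKM, fragment counts scaled by transcript length and library size, which allow a comparison between entries, and sums over entries as CPM, counts scaled to library size with TMM factors. The libraries are bulk samples, in which fewer cells with an RNA and less of it per cell cannot be told apart. Fold changes are log2 of SF1-8 over DMSO from the edgeR fit, with a standard error (SE). The fit prints no SE, so it was derived as the size of the log2 fold change over the square root of the test's F statistic. The erythroid identity was seen in GATA1 at 75.9 to 79.1 FPKM in the 4 libraries, and all 9 erythroid markers had a mean of 1 FPKM or more. Of these, HBG1, HBG2 and HBE1 had identical values in every library and are not separate evidence. Of the fibroblast markers, all 5 (COL1A1, COL1A2, COL3A1, DCN and LUM) were lower in both SF1-8 libraries than in both DMSO libraries, with summed FPKM of 9.73 and 4.62 in DMSO against 2.26 and 0.554 in SF1-8. The T cell sum was 5.45 and 4.8 FPKM in DMSO and 3.97 and 3.85 FPKM in SF1-8, nearly all of it CD3D, and the B cell sum was 0.382 and 0.353 against 0.46 and 0.502 FPKM. Of the endothelial markers, PECAM1 was at 0.959 to 1.17 FPKM, while CDH5 and VWF were at 0 in all libraries. The part of these differences in the values of the families was not tested.

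Of the 69 tested members, 28 were higher in the treated cells and 41 lower. The median of their log2 fold changes was -0.04. Over all 26167 tested entries, 48.4% were higher, and the median was -0.01. A change of less than 0.5 on the log2 scale was seen in 45 of the 69 members, and in 72.0% of all tested entries. In FPKM, the treated pair above the controls in 16 and below them in 17, against 14.2% and 20% of all tested entries. Of the members, 5 had such a separation with a log2 fold change of 1 or more and 3 with -1 or less, where 2.84% and 5.70% of all entries did. An unadjusted p under 0.05 was seen in 10 members against 4.33% of all entries, with 6 higher (1.78% of all entries) and 4 lower (2.54%). One member, an NUDT4B entry, was among the 11 entries (0.042%) with an adjusted p under 0.05 in the edgeR quasi-likelihood test. The 36 members that were not tested included 13 at 0 in all libraries, and none of the 36 exceeded 34 counts or 1.6 FPKM in any library. Of the 36 golgin entries, 27 were not tested.

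**Figure D1:**
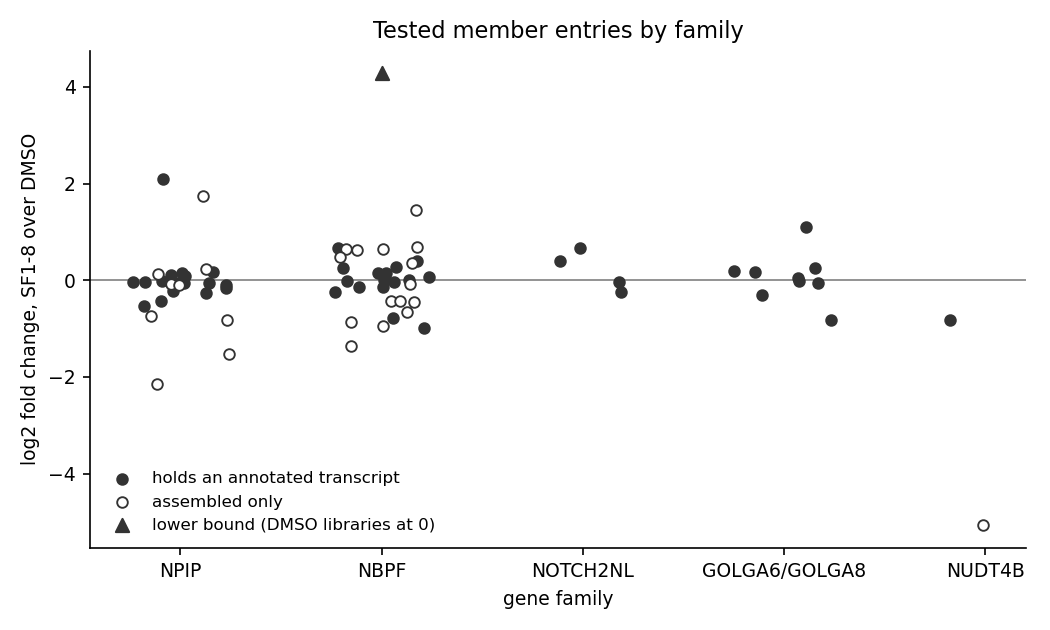
Log2 fold change of SF1-8 over DMSO for each tested member entry, by gene family. Points are filled where the entry holds an annotated transcript and open where it was assembled from the reads alone. An entry that names 2 families is drawn in both. The triangle, drawn as a lower bound, is NBPF13P against a floor of 3 deposited counts per DMSO library. It is not a strict bound, since deposited counts are not single reads. Most points lie close to 0, and the lowest is the assembled NUDT4B entry at -5.07.

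Entries that hold an annotated transcript and entries assembled from the reads alone differed in the size of their log2 fold changes. Among the members, 44 tested entries held an annotated transcript, and the median size of their log2 fold change was 0.157. For the 25 assembled-only members it was 0.643. Over all tested entries the values were 0.178 for 21536 annotated and 0.537 for 4631 assembled-only entries. Some assembled-only members had few counts and a wide error. An NPIPB8 entry (MSTRG.13797) had 37, 0, 0 and 17 deposited counts and a SE of 2.29, while the assembled NPIPB15 entry had a SE of 0.149. The part of low counts in this difference in size was not tested. Of the 8 members with separated groups and a change of 1 or more in size, 5 were assembled only, and all 3 that were lower were among them. Such a change was seen in 20% of the assembled-only members (5 of 25) and in 17% of all assembled-only entries (789 of 4631), and in 6.82% of the annotated members (3 of 44) and 6.72% of all annotated entries. Over all tested entries, 610 of 4631 assembled-only entries were lower in this way and 179 were higher. Of 21536 annotated entries, 882 were lower and 565 higher. The median log2 fold change over all tested entries was -0.285 for assembled-only and 0.0103 for annotated ones. Lower values in assembled-only entries were thus not particular to the members. Each of the 5 assembled-only members with such a change overlapped, or lay inside, a locus with an annotated transcript.

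NUDT4B showed the largest fall among the members. Its assembled-only entry (MSTRG.3295, chr1:148743795-148752354, plus strand) had 9.81 and 12.8 FPKM in the DMSO libraries and 0.383 and 0.265 FPKM in the SF1-8 libraries. Both treated libraries were thus far below both controls, with a log2 fold change of -5.07 (SE 0.298). Leaving out either DMSO library took this entry above the threshold of 0.05, to an adjusted p of 0.070 without the first and 0.051 without the second in the same edgeR test. The log2 fold change stayed between -5.37 and -4.82 when any 1 library was left out.

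The annotated NUDT4B entry (MSTRG.3296, chr1:148748651-148750099, plus strand) lies inside the assembled one and was at 14.3 and 5.71 FPKM in DMSO and 5.58 and 5.41 FPKM in SF1-8. Only the first DMSO library was high, the second lay near the treated libraries, and the log2 fold change was -0.82 (SE 0.405). NUDT4P2 (MSTRG.3146, chr1:146293012-146301571, plus strand), which is no member and was looked at after its values were seen, had 9.89 and 6.81 FPKM in DMSO and 2.15 and 2.33 FPKM in SF1-8. Its groups did not overlap either, with a log2 fold change of -1.86 (SE 0.185).

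The parent gene went the other way. NUDT4 (MSTRG.8877, chr12:93377883-93408146, plus strand) had 14.0 and 7.61 FPKM in DMSO and 16.7 and 17.6 FPKM in SF1-8, a log2 fold change of 0.71 (SE 0.258). The treated libraries were above both controls, but the controls differed from each other by about as much as the group means did. Leaving out a DMSO library moved the value from 0.71 to 1.16 (without the first) or 0.37 (without the second). Of 2 more NUDT4 entries on chromosome 12, both assembled only, 1 had 0.350, 1.64, 1.52 and 1.64 FPKM in the 4 libraries, and the other was at 1.65 FPKM in the first DMSO library and at 0 in the other libraries.

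Summed over NUDT4B and NUDT4P2, the copies on chromosome 1 had 86.5 and 65.9 CPM in DMSO and 21.3 and 21.4 CPM in SF1-8, a log2 change of -1.83. The NUDT4 entries on chromosome 12 had 262 and 157 CPM in DMSO and 326 and 342 CPM in SF1-8, a log2 change of 0.67. All of these entries together had 286 ± 88.8 CPM in DMSO and 355 ± 11.1 CPM in SF1-8 (mean ± SD, n = 2 each), so the treated libraries (348 and 363 CPM) were not separated from the first DMSO library (349 CPM). The chromosome 1 copies held 24.8% and 29.5% of this sum in DMSO and 6.12% and 5.90% in SF1-8. Both treated libraries had a lower share than both controls, while the sum overlapped between groups.

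**Figure D2:**
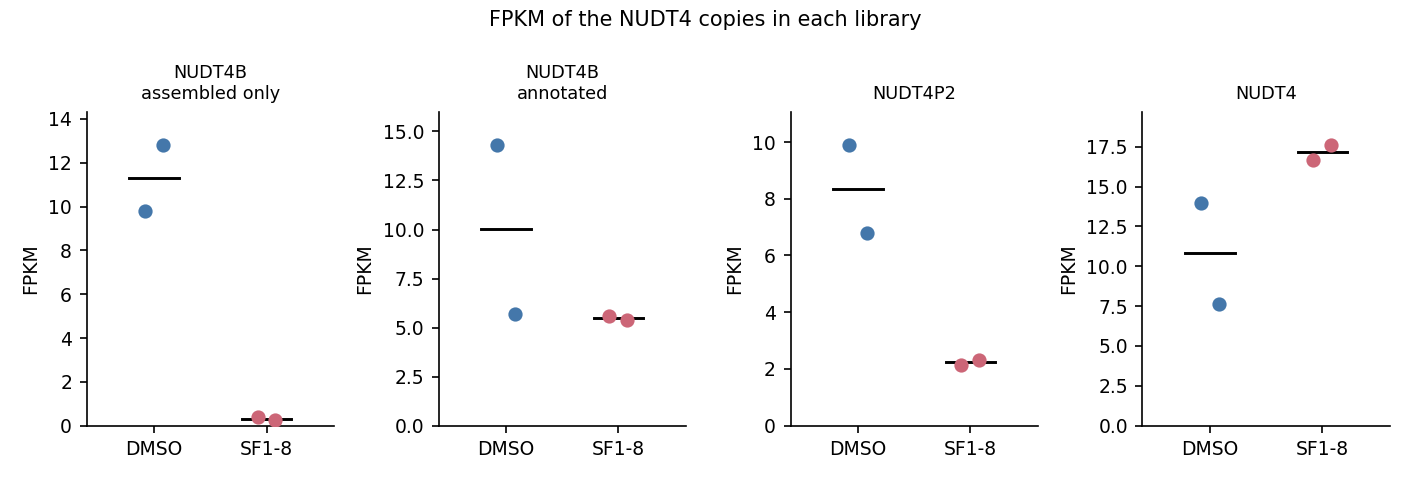
FPKM of the NUDT4, NUDT4B and NUDT4P2 entries named in the text, with 1 point per library (2 DMSO, 2 SF1-8) and a line at the group mean; each panel has its own axis from 0. The 3 entries on chromosome 1 were lower with SF1-8 and NUDT4 on chromosome 12 was higher, at 16.7 and 17.6 against 14.0 and 7.61.

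In NPIP, 26 of 29 entries were tested, with 8 higher and 18 lower, and 19 of the 26 changed by less than 0.5 on the log2 scale. The family sum was 2451 and 2699 CPM in DMSO and 2535 and 2548 CPM in SF1-8, a log2 change of -0.02, and the treated libraries lay between the controls. The most abundant entries were NPIPB6 joined with EIF3CL, EIF3C joined with NPIPB9, and SMG1P1 joined with NPIPB5. EIF3C encodes a subunit of the translation initiation factor eIF3, and EIF3CL is its duplicate, so the levels of joined entries are not those of NPIP alone.

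The NPIPB6 and EIF3CL entry (MSTRG.13775, chr16:28342555-28403841, minus strand) had 23.8, 23.4, 24 and 25.5 FPKM, in the order DMSO 1, DMSO 2, SF1-8 1 and SF1-8 2. The EIF3C and NPIPB9 entry (MSTRG.13799, chr16:28688558-28772807, plus strand) had 21.7, 20.3, 20.3 and 19.4 FPKM. The first was slightly higher with SF1-8 (log2 fold change 0.10, SE 0.0665) and the second slightly lower (-0.06, SE 0.066), each by no more than about 1.5 SE. The first entry shared 90.1% of its 50-base words with the second. Their sum was 609 ± 5.76 CPM in DMSO and 620 ± 3.22 CPM in SF1-8 (mean ± SD, n = 2 each).

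Some of the larger differences in NPIP were in entries assembled over annotated loci. An assembled NPIPB15 entry (MSTRG.14299, chr16:74319666-74429568, plus strand) had 0.603 and 0.677 FPKM in DMSO and 2.19 and 2.03 FPKM in SF1-8. The groups did not overlap, and the log2 fold change was 1.74 (SE 0.149). On the other strand of the same stretch, the assembled entry AC009053 (MSTRG.14300, chr16:74323319-74429307, minus strand), no member, had 2.93 and 2.97 FPKM in DMSO and 0.524 and 0.569 FPKM in SF1-8. Its log2 fold change was -2.40 (SE 0.148), the reverse of its partner, and the overlap of the pair covered 105989 bases. The other nearest tested entry, AC009120 joined with AC009053 (MSTRG.14296), also on the minus strand, overlapped NPIPB15 by 48483 bases and had 2.43, 2.53, 2.3 and 2.94 FPKM, a log2 fold change of 0.10 (SE 0.154).

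Added together, this pair had 25.8 and 28.4 CPM in DMSO and 29.8 and 28.0 CPM in SF1-8, a log2 change of 0.09, with the groups overlapping. The plus-strand entry held 26.7% and 28.7% of the sum in DMSO and 88.1% and 86.2% in SF1-8. The sources did not state whether the counting used strand, and without it reads of a pair on opposite strands cannot be told apart. The annotated NPIPB15 entry inside the stretch (MSTRG.14303, chr16:74377878-74392080, plus strand) was low, at 0.332, 0.169, 0.266 and 0.0587 FPKM, with overlapping groups. CLEC18B, a C-type lectin gene in the same stretch on the minus strand, had a log2 fold change of -0.50 (SE 0.258). Further plus-strand entries in the stretch, named AC009053, were at -0.70 (MSTRG.14306, SE 0.304) and -0.25 (MSTRG.14302, SE 0.31). An AC009120 entry on the minus strand (MSTRG.14301) was at 0.02 (SE 0.198).

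At NPIPB5, an assembled entry named NPIPB5 and AC106788 (MSTRG.13553, chr16:22494242-22542674, minus strand) had 3.69 and 2.84 FPKM in DMSO and 0.763 and 0.671 FPKM in SF1-8. Its groups were separate, with a log2 fold change of -2.15 (SE 0.161). The annotated SMG1P1 and NPIPB5 entry on the plus strand (MSTRG.13552, chr16:22437008-22543399), which covers it, had 8.21, 8.55, 9.02 and 8.68 FPKM, a log2 fold change of 0.10 (SE 0.0763). A further minus-strand entry inside it had 3, 2.62, 2.79 and 3.67 FPKM and a log2 fold change of 0.23 (SE 0.255). These NPIPB5 entries together had 375 ± 17.3 CPM in DMSO and 374 ± 12.2 CPM in SF1-8 (mean ± SD, n = 2 each). Of this, MSTRG.13553 held 39.4 and 32 CPM in DMSO and 8.58 and 7.5 CPM in SF1-8.

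**Figure D3:**
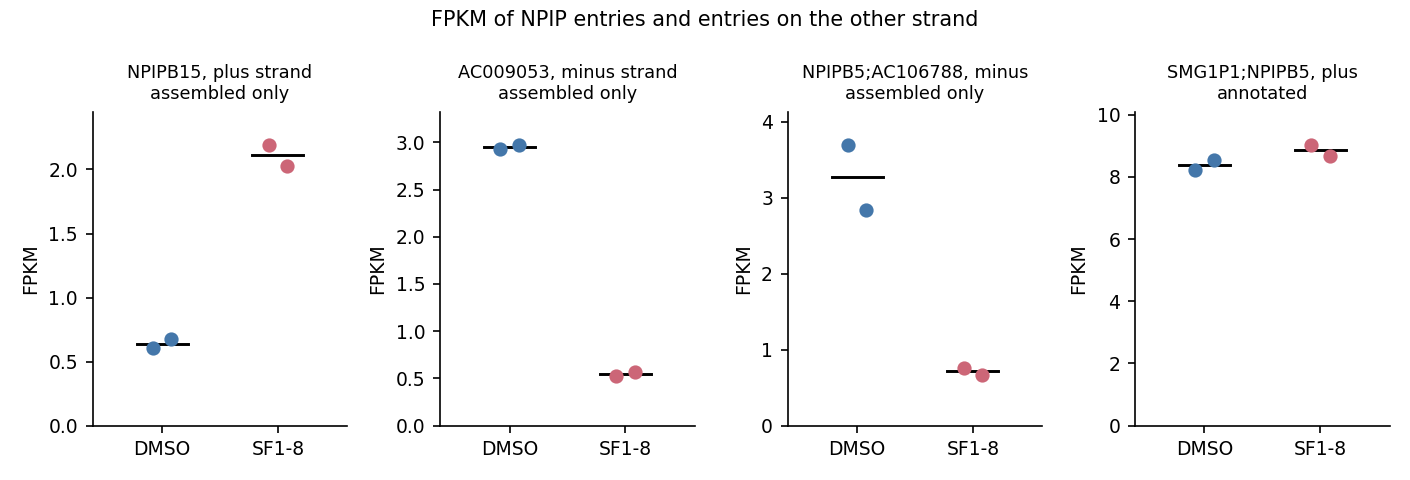
FPKM of NPIP entries and of entries that overlap them on the other strand, with 1 point per library (2 DMSO, 2 SF1-8) and a line at the group mean; each panel has its own axis from 0. The assembled NPIPB15 entry on the plus strand was higher with SF1-8 (2.19 and 2.03 against 0.603 and 0.677). The annotated NPIPB15 entry is not drawn. Both assembled entries on the minus strand were lower, and SMG1P1 with NPIPB5 stayed between 8.21 and 9.02.

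NPIPB10P, a pseudogene (MSTRG.13827, chr16:29038655-29052726, plus strand), had 0.150 and 0.151 FPKM in DMSO and 1.00 and 0.325 FPKM in SF1-8, a log2 fold change of 2.09 (SE 0.676). This was the largest value above 0 in NPIP, and the first SF1-8 library set it, since the value was 1.05 without that library. Both nearest tested entries were lower, an entry of SNX29P2 and joined names at -1.63 (SE 0.645) and RRN3P2 at -1.13 (SE 0.310). RRN3P2 had 0.414, 0.456, 0.207 and 0.185 FPKM. NPIPB13 joined with SMG1P5 (MSTRG.13711) had 3.14 and 2.75 FPKM in DMSO and 2.21 and 2.06 FPKM in SF1-8 (log2 fold change -0.44, SE 0.0883). The entry with which it shared most words (84.5%), a long one holding NPIPB11 and NPIPB12, was at -0.05 (SE 0.119).

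NPIPA entries, which lie in a separate part of chromosome 16 beside PKD1 pseudogenes, were close to 0 in change. Their sum was 787 and 954 CPM in DMSO and 806 and 794 CPM in SF1-8, so the control libraries differed from each other more than the groups did. NPIPB entries summed to 1663 and 1745 CPM in DMSO and 1729 and 1753 CPM in SF1-8. The assembled-only NPIP entries held 52.9 ± 4.38 CPM in DMSO and 42.5 ± 2.73 CPM in SF1-8, and the annotated ones 2522 ± 180 and 2499 ± 11.5 CPM (mean ± SD, n = 2 each).

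In NBPF, 32 of 38 entries were tested, with 15 higher and 17 lower. The family sum was 537 and 557 CPM in DMSO and 575 and 576 CPM in SF1-8, a log2 change of 0.07, with both treated libraries above both controls. NBPF1 (MSTRG.1616, chr1:16562319-16613562, minus strand), the family's most abundant entry, had 7.17, 8.09, 8.27 and 8.26 FPKM and a log2 fold change of 0.14 (SE 0.103). A short assembled entry inside it on the plus strand (MSTRG.1617) had 5.93, 6.57, 5.66 and 3.43 FPKM, a value of -0.44 (SE 0.352). NBPF12 (MSTRG.3165, chr1:146938348-146996202, plus strand) had 5.45, 5.60, 5.66 and 5.19 FPKM, with overlapping groups.

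NBPF13P, a pseudogene (MSTRG.3162, chr1:147019656-147056593, minus strand), had no count in either DMSO library and 59 and 80 counts, or 0.390 and 0.555 FPKM, in the SF1-8 libraries. Against a floor of 3 deposited counts per DMSO library, the mean of 1.08 CPM in SF1-8 was 19.5-fold higher. The deposited counts are not single reads, so this value is not a lower bound for counting error. Its nearest tested neighbours were NBPF12, described above, and AC241584, at 0.256, 0.0523, 0.109 and 0.0601 FPKM with overlapping groups.

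NBPF20 (MSTRG.3118, chr1:145289900-145413414, minus strand) had 0.535 and 0.458 FPKM in DMSO and 0.265 and 0.297 FPKM in SF1-8, a log2 fold change of -0.79 (SE 0.156). NBPF25P (MSTRG.3131), a pseudogene, was at 1.5, 1.05, 0.396 and 0.852 FPKM, with -0.99 (SE 0.403), just short of a change of 1. AL390038 joined with NBPF6 (MSTRG.2867) had 3.84 and 3.97 FPKM in DMSO and 4.48 and 4.68 FPKM in SF1-8, with 0.26 (SE 0.0937). Its closest copy, NBPF4 joined with AL359258 (MSTRG.2856), shared 92.6% of its words with it and stood at 3.53, 3.01, 3.55 and 3.18 FPKM, with 0.07 (SE 0.11).

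Short entries were also assembled inside NBPF genes. In NBPF3, an entry of 252 bases without a strand (MSTRG.1701) had 0.781 and 1.07 FPKM in DMSO and 2.77 and 2.38 FPKM in SF1-8, a log2 fold change of 1.46 (SE 0.490). The annotated NBPF3 entry around it had 0.709, 0.779, 0.746 and 0.700 FPKM, at -0.02 (SE 0.177). A minus-strand assembled NBPF3 entry next to it (MSTRG.1702) had 1.11, 0.803, 1.87 and 1.1 FPKM, at 0.64 (SE 0.681), with overlapping groups. In NBPF12, an entry of 794 bases (MSTRG.3166) had 1.87 and 1.20 FPKM in DMSO and 0.978 and 0.158 FPKM in SF1-8, at -1.37 (SE 0.803). The SF1-8 libraries differed widely here, and the value was -3.11 without the first of them and -0.60 without the second. The pseudogene PFN1P8, its other nearest entry, was at -0.31 (SE 0.553).

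All 4 NOTCH2NL entries were tested, and each is joined with an NBPF gene. NBPF14 with NOTCH2NLB (MSTRG.3292, chr1:148531385-148679742, minus strand) had 0.586 and 0.658 FPKM in DMSO and 1.17 and 0.761 FPKM in SF1-8, a log2 fold change of 0.66 (SE 0.248). The first SF1-8 library was the high one, and the value was 0.31 without it. NBPF10 with NOTCH2NLA (MSTRG.3160, chr1:146064711-146229026, minus strand) had 1.35 and 1.26 FPKM in DMSO and 0.993 and 1.17 FPKM in SF1-8, at -0.24 (SE 0.125). Here the first SF1-8 library was the low one.

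The NOTCH2NLB entry shared 74.7% of its 50-base words with the NOTCH2NLA entry, and the NOTCH2NLA entry 59.8% of its own with the NOTCH2NLB entry. In CPM, the NOTCH2NLB entry had 18.6 in the first SF1-8 library and 12 in the second, while the NOTCH2NLA entry had 20.8 and 24.3. Their sum was 36.4 ± 0.872 CPM in DMSO and 37.9 ± 2.16 CPM in SF1-8 (mean ± SD, n = 2 each). NOTCH2NLC with NBPF19 (MSTRG.3309) had 0.536, 0.565, 0.790 and 0.636 FPKM (0.40, SE 0.164), and NOTCH2NLR with NBPF8 and NBPF26 (MSTRG.3110) had 2.66, 2.56, 2.39 and 2.59 FPKM (-0.04, SE 0.083). NOTCH2 itself, a Notch receptor and no member, was low at 0.235, 0.163, 0.107 and 0.188 FPKM, with overlapping groups and -0.39 (SE 0.338). The family sum was 122 and 126 CPM in DMSO and 129 and 127 CPM in SF1-8, a log2 change of 0.04.

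In the golgins, 9 of 36 entries were tested, with 5 higher and 4 lower, and the family sum was 249 and 235 CPM in DMSO and 237 and 237 CPM in SF1-8. Most of it came from GOLGA8A joined with GOLGA8B (MSTRG.11685, chr15:34378790-34588503, minus strand), at 7.51, 6.73, 6.67 and 6.79 FPKM, with a log2 fold change of -0.05 (SE 0.0682). GOLGA6L9 joined with UBE2Q2P2 (MSTRG.12559) had 1.35, 1.22, 1.5 and 1.37 FPKM, at 0.18 (SE 0.133), and GOLGA6L5P joined with UBE2Q2P1 (MSTRG.12605) had 0.594, 0.476, 0.651 and 0.599 FPKM, at 0.25 (SE 0.192). Neither exceeded 1.5 SE. GOLGA8N (MSTRG.11637, chr15:32593456-32607310, plus strand) had the highest value, 1.10 (SE 0.653), at only 0.0296, 0.0178, 0.0533 and 0.0474 FPKM. Its nearest tested entries were AC123768, at 0.28 (SE 0.629), and ARHGAP11A, at 0.21 (SE 0.191). GOLGA8VP had the lowest value, -0.83 (SE 0.863), set by its second DMSO library (0.0835, 0.189, 0.0863 and 0.0645 FPKM).

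**Figure D4:**
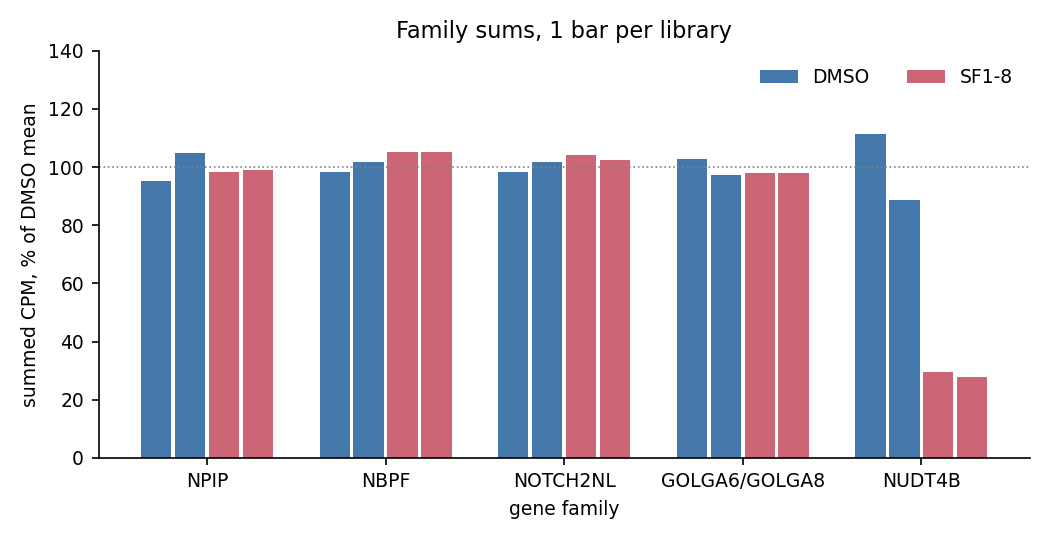
Summed CPM of the tested entries of each family in each library, as a percentage of the mean of the 2 DMSO libraries, with 1 bar per library. In 4 families all libraries stayed close to 100%, and the NUDT4B sum was 41.6 and 33.2 CPM in DMSO against 11 and 10.4 CPM in SF1-8.

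The directions of copies were first counted over pairs of tested entries within a family. Of 325 NPIP pairs, 144 (44.3%) had fold changes of opposite sign, and of 496 NBPF pairs, 255 (51.4%). Of the 6 NOTCH2NL pairs, 4 were opposite, and of the 36 golgin pairs, 20. Among pairs in which both entries had separated groups, 35 of 66 were opposite in NPIP, 64 of 120 in NBPF, 2 of 3 in NOTCH2NL and 0 of 3 in the golgins. Pairs of 1 family share entries, so these shares are a description. They follow from how many entries of the family were higher and lower, or separated above and below. They therefore give no separate answer on whether copies moved in opposite ways.

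Pairs were also formed by sequence, from each annotated member and the tested entry it shared most words with, where this was 50% or more of its words. There were 18 such pairs, of which 8 had opposite and 10 the same sign. In 4 of the opposite pairs, both entries had separated groups. These were the annotated NUDT4B entry with NUDT4, NBPF10 and NOTCH2NLA with NBPF14 and NOTCH2NLB, NPIPB6 and EIF3CL with EIF3C and NPIPB9, and NBPF5P with NBPF6. NBPF5P had 2.64, 2.64, 2.42 and 2.30 FPKM, a log2 fold change of -0.14 (SE 0.157). Pairs of the same sign with separated groups in both entries were also seen. SMG1P1 with NPIPB5 (0.10) and the joined NPIPB3 and NPIPB4 entry (0.17) were both higher, as were NPIPB10P (2.09) and NPIPB6 with EIF3CL (0.10). These counts have no share over all tested entries beside them.

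The net and the gross change of each family were then compared. The gross change adds the size of every entry's difference in CPM, the net change adds the signed differences, and both are given as a percentage of the family's DMSO sum. Between the group means, NPIP had a gross change of 9.95% and a net change of -1.30%, NBPF 12.3% and 5.15%, NOTCH2NL 13.0% and 2.92%, and the golgins 4.82% and -2.14%. Between the DMSO libraries, the gross change was 11.4% in NPIP, 12.2% in NBPF, 3.90% in NOTCH2NL and 6.82% in the golgins. Between the SF1-8 libraries, it was 5.96%, 10.1%, 15.4% and 2.87% in the same order. In NPIP, NOTCH2NL and the golgins the gross change between groups was smaller than that between the libraries of 1 of the groups, and in NBPF it was 12.3% against 12.2%. The group means average 2 libraries, which the within-group differences do not. NUDT4B differed, with a gross and net change of 71.3% and -71.3% between groups, 55.3% and -22.4% between the DMSO libraries and 1.62% between the SF1-8 libraries.

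**Figure D5:**
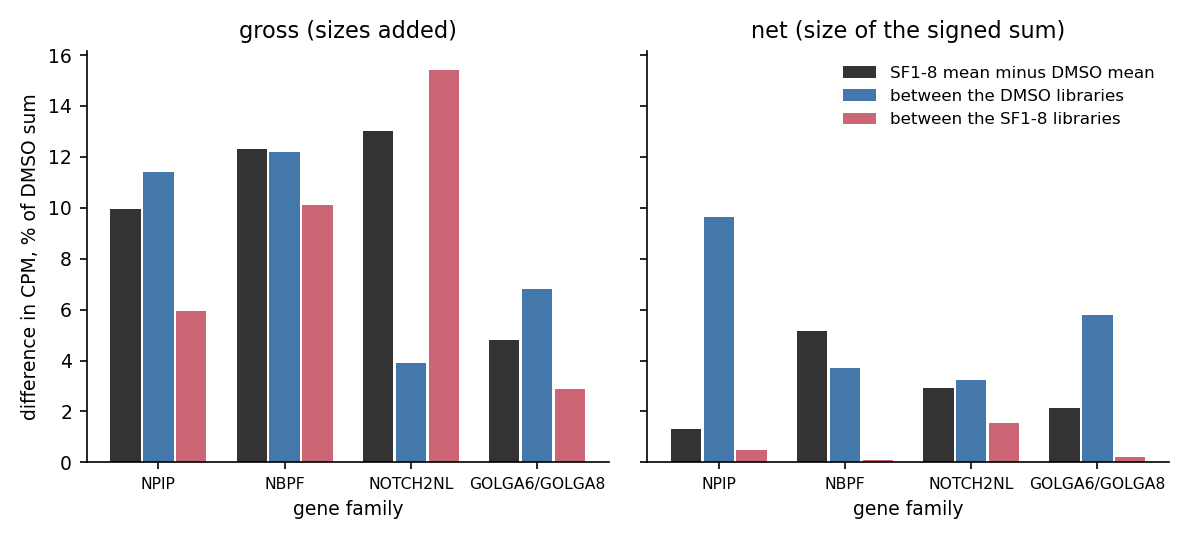
Gross (left) and net (right, as a size) difference in CPM over the tested entries of 4 families, as a percentage of the family's DMSO sum, between the group means and between the 2 libraries of each group. In every family at least 1 within-group bar on the left is as tall as the bar between groups or nearly so, with NBPF at 12.3% against 12.2% between the DMSO libraries.

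Neighbours were taken as the nearest tested entry on each side on the same chromosome. Of 190 such pairs with at least 1 member, 88 (46.3%) had fold changes of opposite sign, against 49.2% of all 34511 neighbouring pairs of tested entries. Of 53 overlapping pairs on opposite strands, 25 (47.2%) were opposite, against 51.0% over all such pairs. Where both entries had separated groups, 24 of 40 pairs (60.0%) were opposite, against 46.0% of 4054 pairs over all entries. Of the 16 nearest neighbours of the 8 members with the largest separated changes, 9 were of opposite and 7 of the same sign. Of these, 1 pair, the assembled NPIPB15 entry and AC009053, had a change of more than 1 in opposite directions with a SE under 0.2 on both sides.

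The other genes of the same duplicated blocks were taken from a list of 80 symbols, such as SMG1 and PKD1 with their pseudogenes, NOMO, PDXDC1, SRGAP2, FAM72, HERC2 and ARHGAP11. Of these, 75 symbols were in the table, and 65 entries other than members were tested. Of these 65, 36 were higher in the treated cells and 29 lower, against 48.4% higher over all tested entries, and their median log2 fold change was 0.01. None had an adjusted p under 0.05 in the edgeR quasi-likelihood test, nor in DESeq2, and 4 of 65 had an unadjusted p under 0.05 in edgeR, against 4.33% of all tested entries. The 4 were LINC00869 with joined names at 1.97 (SE 0.424) and below 0.13 FPKM throughout, an assembled PDXDC1 entry at 0.66 (SE 0.199), NOMO3, which encodes an endoplasmic reticulum membrane protein, at 0.41 (SE 0.105), and RRN3P2 at -1.13 (SE 0.310). The assembled PDXDC1 entry had 6.41 and 6.27 FPKM in DMSO and 10.2 and 9.40 FPKM in SF1-8, while the annotated PDXDC1 entry was at 0.11 (SE 0.085). The other NOMO copies went the other way from NOMO3, with NOMO1 at -0.08 (SE 0.0824) and NOMO2 at -0.14 (SE 0.0807). The lowest value was that of an assembled UBE2Q2P1 entry, -1.96 (SE 1.27), with overlapping groups.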

How the data were processed

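Total RNA of the 4 libraries was depleted of ribosomal RNA and made into libraries by the TruSeq standard total RNA protocol, per the labels. The authors' processing notes name cutadapt, FastQC, Bowtie2, HISAT2, StringTie and hg38, without versions. The authors deposited FPKM and whole-number estimated counts for each assembled entry, and a deposited FPKM of 0.0001 stood for 0. In the deposited counts 4 was the commonest value above 0, so they are not single reads. The 2095 entries without a gene name held 0.372% of counts and were left out. Members were found by name, and the members, gene lists and tests were chosen with earlier results of these data known.

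Entries that passed filterByExpr (26167) were tested with edgeR 4.0.16 (R 4.3.3), TMM scaling, the quasi-likelihood test and Benjamini-Hochberg adjustment over all of them. The comparison used all 4 libraries without covariates, 2 in each group, and the p-values measure only the spread between these libraries. Depth was 45522905 to 67554610 counts per library. The floor for an entry at 0 was set at 3 deposited counts. Since these are not single reads, it is not a bound for counting error. Family sums are CPM added over tested entries, and an entry with 2 families counts in each. Shared 50-base words and printed sequences came from GENCODE v29 transcripts (GRCh38). Of 28207 entries with an Ensembl gene ID in v29, 79.2% had the same start and end as there. The edgeR script was tested on simulated data.

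Named entries were each family's 3 most abundant, its largest rise and fall, all with separated FPKM groups and a log2 fold change of 1 or more in size with their nearest tested entries, those with an adjusted p under 0.05, and NUDT4 and NOTCH2. Others (NUDT4P2, CLEC18B, NBPF20, NBPF25P, NBPF4, NBPF5P, NBPF6, NPIPB13, NOTCH2NLC, NOMO1, NOMO2 and the annotated NPIPB15 and PDXDC1 entries) were added after their values were seen. So were the joined NPIPB3 and NPIPB4 entry, an assembled NPIPB8 entry (MSTRG.13797), and further AC009120 and AC009053 entries (MSTRG.14301, MSTRG.14302 and MSTRG.14306). Alternatives were DESeq2 1.42.0, RLE scaling, no filter, a replicate block, limma 3.58.1 on log2(FPKM + 1) and log2(FPKM + 0.1), limma on entries above 2 FPKM in at least 1 library, other family sums and leaving out each library.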

Additional observations from a re-analysis of the deposited data

How the results depend on the processing

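With 2 libraries per group, counts of calls over all entries depended strongly on the processing. Against 11 entries with an adjusted p under 0.05 in the edgeR test, there were 11 with RLE scaling, 31 without the filter on low counts, 143 with DESeq2, and 1 with limma on entries above 2 FPKM. There were 0 with limma on log2(FPKM + 1) and 0 with 0.1 added, where 1493 and 1499 had an unadjusted p under 0.05. Leaving out 1 library gave from 0 (without DMSO replicate 1, with 1341 at an unadjusted p under 0.05) to 30 (without SF1-8 replicate 1), with 21 without DMSO replicate 2 and 28 without SF1-8 replicate 2. Same-numbered libraries shared only a number (correlation of deviations -0.0155), and edgeR with the replicate block called 0 entries (971 at an unadjusted p under 0.05). The adjusted p of the assembled NUDT4B entry ranged from 1.18e-49 (DESeq2) to 0.259 (limma), and was under 0.05 in 5 of 11 alternatives.

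The NPIP sum changed by 0.81 instead of -0.02 (log2) when only entries naming a single gene were added, which drops the abundant joined entries. The assembled NPIPB15 entry stays in, at 6.89 and 8.16 CPM in DMSO and 26.3 and 24.1 CPM in SF1-8. The assembled NPIPB5 and AC106788 entry, at 39.4 and 32 CPM in DMSO and 8.58 and 7.5 CPM in SF1-8, is dropped for naming 2 genes. The value of 0.81 thus does not show that single-gene entries rose together. Leaving out a library moved the log2 change of the sums from -0.0867 to 0.0524 in NPIP, 0.046 to 0.0995 in NBPF, -0.0723 to 0.0111 in the golgins and -1.96 to -1.63 in NUDT4B. Restricting neighbours to pairs with separated groups left 24 opposite pairs of 40 instead of 88 of 190. The share of opposite pairs was then 60.0% instead of 46.3%, against 46.0% instead of 49.2% over all entries. It thus lay above the share over all entries instead of below it, and the result depended on this choice. Of 37 named entries tested, 7 changed sign under at least 1 alternative, and of the 12 with a log2 fold change of 1 or more in size, 0 did. Those 12 all had separated groups in FPKM, so leaving out a library could hardly turn their sign. The 0 of 12 is therefore no measure of robustness.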
